A study of Rattus norvegicus with 10 samples.

Results

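Hox, T-box, Pitx, Meis and Pbx genes encode transcription factors that give cells of an embryo their position along the body and the limbs, and they are the subject here in muscle taken from beneath the skin of arthritic rats. All transcripts whose symbol in the expression table is a numbered Hox, Tbx, Pitx, Meis or Pbx gene were taken, which gave 47 transcripts of 45 symbols among 17221 transcripts. Of these, 31 transcripts of 30 symbols reached 1 CPM (counts per 1e+06 reads, scaled by the authors) in some library, and 28 of those 31 are described. At that limit, Hoxc8 and Tbx6 were included with a highest value of 1.19 CPM, and Hoxa2 was left out with a highest value of 0.865 CPM. Symbols are those of the table, with 2 exceptions that matter. The transcript listed as Hoxa10 (NM_001129878) belongs to Hoxa11 in the current RefSeq gene table, and the one listed as Hoxa9 (NM_001109233) to Hoxa7. They are written Hoxa10 (Hoxa11) and Hoxa9 (Hoxa7), and keep their listed place in the order. In RefSeq, 41 members had the same symbol by accession and 4 (Meis2, Tbx2, Tbx15 and Tbx19) had no match by accession.

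The study asked how a needle put in and twirled under the skin acts on arthritis that was induced with collagen. Animals are immunised with bovine type II collagen, and the swollen joints that follow model rheumatoid arthritis. All 10 libraries came from female Wistar rats with this disease, with 2 libraries per group. The labels call these replicates and do not name the rat of a library, so each was treated as a separate rat. RA_0 was taken before therapy, AP_1h and AP_34d at 1 hour and 34 days of acupuncture, and PLA_1h and PLA_34d at the same times of placebo. Placebo was a peritoneal saline injection, not one at the needle points. The needle points lay beside the lower back spine and below the knee, on both sides. The paper calls the sampled tissue dorsal subcutaneous tissue, and its methods say that tissue around the stimulated points was cut out. The labels give no age, name every sample muscle tissue 1 and do not say from which point a library came. A difference in the place of sampling and a difference between groups therefore cannot be told apart. In bulk tissue, fewer cells of a type and less RNA per cell cannot be told apart either.

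Hox genes lie in clusters a to d, and genes of low paralogue number act towards the head while those of high number act towards the tail and the ends of the limbs. Their proteins bind DNA together with Pbx and Meis partners. Pitx1 and Tbx4 are known for hindlimb identity and Tbx5 for forelimb identity, and adult muscle and connective tissue cells keep much of the Hox pattern of the place they came from.

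The bases before the start of 3 Hox genes are shown because these genes differed most between AP_1h and PLA_1h among the Hox members tested, in opposite directions. They are the 250 bases before the RefSeq start in build GRCr8, 5′ to 3′ on the gene's strand, and capitals mark a CCAAT box (CCAAT on either strand), a general promoter element.
Hoxa11 (listed as Hoxa10), chr4:82676802-82677051, minus strand: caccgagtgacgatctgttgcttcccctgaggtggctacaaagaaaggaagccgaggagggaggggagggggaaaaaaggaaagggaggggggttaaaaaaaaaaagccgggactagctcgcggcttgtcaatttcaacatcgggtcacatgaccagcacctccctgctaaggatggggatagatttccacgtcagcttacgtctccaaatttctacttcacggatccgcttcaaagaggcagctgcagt
Hoxd9, chr3:80007756-80008005, plus strand: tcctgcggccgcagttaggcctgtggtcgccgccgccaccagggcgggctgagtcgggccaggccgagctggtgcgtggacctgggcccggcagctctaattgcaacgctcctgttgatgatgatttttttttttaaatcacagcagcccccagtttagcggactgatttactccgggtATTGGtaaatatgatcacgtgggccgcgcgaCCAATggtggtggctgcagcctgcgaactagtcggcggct
Hoxd10, chr3:80001697-80001946, plus strand: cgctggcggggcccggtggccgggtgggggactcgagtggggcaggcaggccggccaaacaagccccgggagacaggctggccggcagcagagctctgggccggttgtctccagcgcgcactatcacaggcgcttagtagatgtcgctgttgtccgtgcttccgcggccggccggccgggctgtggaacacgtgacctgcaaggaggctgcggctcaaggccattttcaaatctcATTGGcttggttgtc
Hoxd9 held 2 such boxes, starting 71 and 40 bases before the start, Hoxd10 held 1 at 15 bases, and Hoxa11 held none. Of all 33469 promoters of this length, 34.0% held CCAAT. On both strands none of the 3 held TGATNNAT (bound by Pbx with Hox, in 7.96% of all promoters), TGACAG (bound by Meis, 15.8%), TAATTA (a homeodomain core, 4.86%) or TATAAA (the TATA box, 12.9%), and no motif hit overlapped another. The G and C share was 52.4% for Hoxa11, 60.0% for Hoxd9 and 67.2% for Hoxd10, with a median of 51.2% over all promoters. A match of letters describes the window only.

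Libraries held 5371687 to 8899521 counted reads. Each CPM stood for 4.19 to 10.1 reads, and 0 reads set an upper limit of 0.297 to 0.716 CPM (3 reads, counting error only). Transcript lengths were not used here, so levels are compared between libraries and never between genes. All 6 skeletal muscle markers were present in every library, with a sum of 81998 to 252696 CPM. PLA_34d replicate 1 stood apart, with lymph node markers summing to 647.7 CPM against 12 to 67.0 CPM elsewhere. Slow fibre markers (6 of 6 in the table, none at 0) summed to 972 and 1120 CPM in AP_1h, below the 1702 to 19952 CPM of the other libraries. Tendon markers (5 of 7 in the table, none at 0 in any library) summed to 63.1 and 39.0 CPM in AP_1h, 97.3 and 315.2 CPM in RA_0 and 42.1 to 214.6 CPM in the other libraries, but the genes of the list went different ways. Chad, Fmod, Kera and Tnmd were lowest in the AP_1h libraries, whereas Scx, the tendon transcription factor, was at 50.9 and 33.0 CPM there, 35.5 and 16 CPM in RA_0 and 4.26 to 23.7 CPM in the other libraries. These shifts move with the AP_1h group, and their part in the results below was not tested.

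The plot of all expressed members by library sets them out in order.

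**Figure D1:**
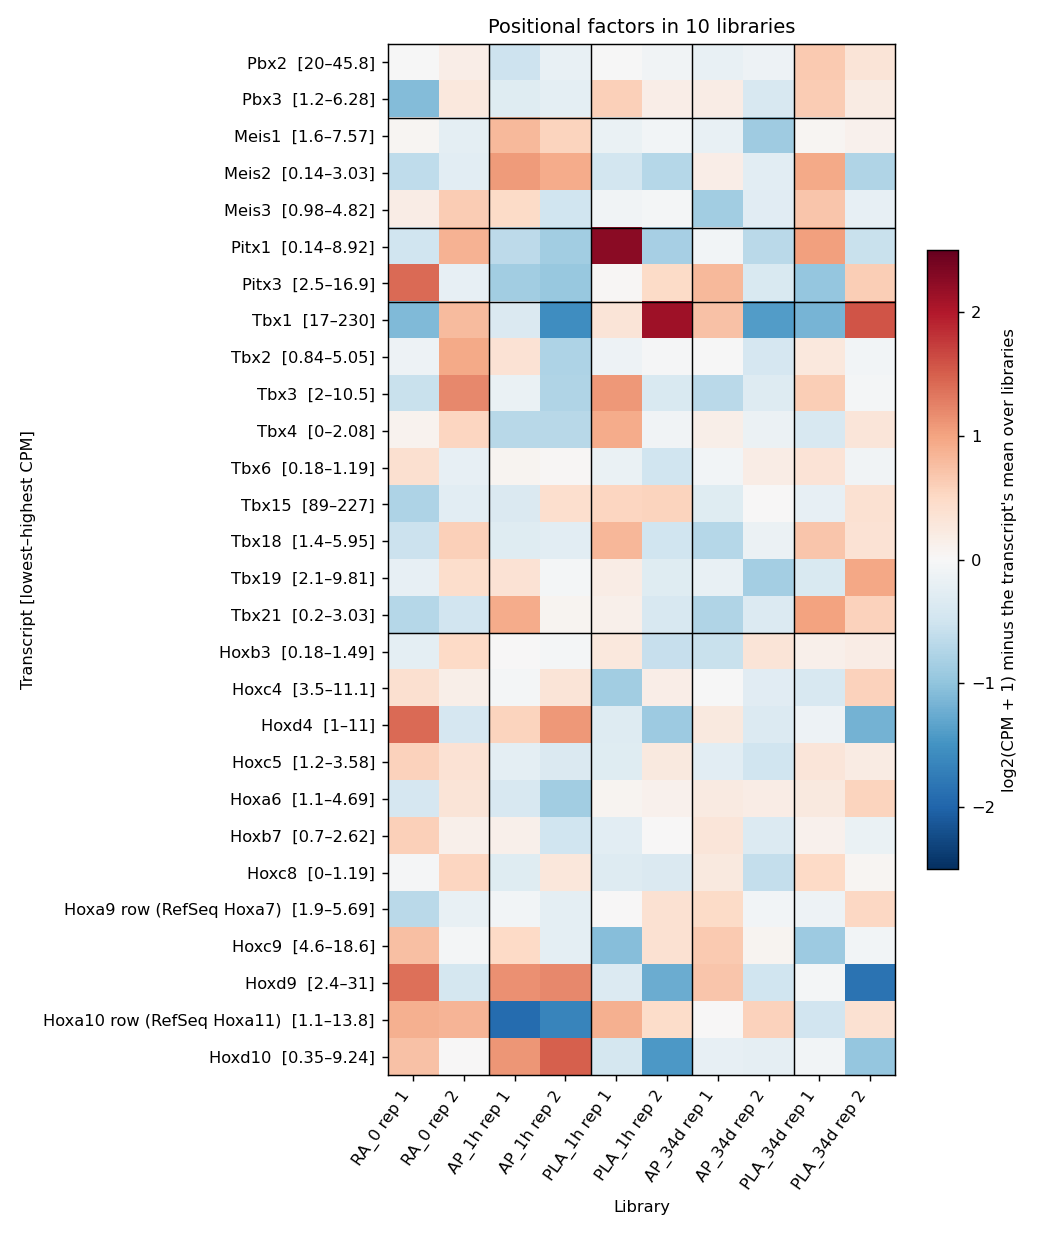
Level of 28 expressed transcripts (rows, Pbx and Meis at the top, then Pitx, Tbx and Hox by paralogue number) in the 10 libraries (columns, 2 per group), as log2(CPM + 1) minus the transcript's mean over libraries, with its lowest and highest CPM in brackets. The Hoxa10 (Hoxa11) row is lowest in both AP_1h libraries, at 1.08 and 1.54 CPM, and Tbx1 runs from 17.2 to 229.7 CPM.

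The Pbx genes encode homeodomain partners that bind DNA with Hox proteins. Pbx2 was read, replicate 1 before replicate 2, at 28.4 and 32.4 CPM in RA_0, 19.8 and 25.2 in AP_1h, 28.6 and 26.9 in PLA_1h, 25 and 26.4 in AP_34d, 45.8 and 36.2 in PLA_34d. Its reading is uncertain because the transcript overlaps C4b. The PLA_34d libraries held the highest values, with PLA_34d replicate 1 at the top, and the groups PLA_34d and AP_34d did not overlap. Pbx3 ranged from 1.19 to 6.28 CPM, with no group apart from the rest, and Pbx4 had 3 reads in all libraries together.

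Meis proteins join Pbx and Hox on DNA and help to set the limb axis. Meis1, a factor of limb and blood development, was read at 4.06 and 3.12 CPM in RA_0, 7.57 and 6.16 in AP_1h, 3.37 and 3.69 in PLA_1h, 3.32 and 1.64 in AP_34d, 4.04 and 4.26 in PLA_34d. Both AP_1h libraries were above all other libraries. Meis2 was read at 0.239 and 0.594 CPM in RA_0, 3.03 and 2.66 in AP_1h, 0.397 and 0.175 in PLA_1h, 1.17 and 0.598 in AP_34d, 2.69 and 0.142 in PLA_34d. The AP_1h libraries and PLA_34d replicate 1 were high, and the other 7 libraries lay between 0.142 and 1.17 CPM, at 1 to 6 reads each. Meis3 ranged from 0.977 to 4.82 CPM, and its AP_1h libraries, at 4.0 and 1.54 CPM, lay within the range of the others.

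Pitx factors have limb, eye and muscle roles. Pitx1, which gives the hindlimb its identity, was read at 0.477 and 2.82 CPM in RA_0, 0.324 and 0.14 in AP_1h, 8.92 and 0.175 in PLA_1h, 0.977 and 0.299 in AP_34d, 3.25 and 0.426 in PLA_34d. RA_0 replicate 2, PLA_1h replicate 1 and PLA_34d replicate 1 were above 2 CPM and the other 7 libraries below 1 CPM, so each of those 3 groups held a high and a low library. Tbx4, its hindlimb partner, was read at 0.716 and 1.34 CPM in RA_0, 0 and 0 in AP_1h, 2.08 and 0.526 in PLA_1h, 0.781 and 0.448 in AP_34d, 0.224 and 0.995 in PLA_34d. It had no read in either AP_1h library, a level that the depth limits to 0.324 and 0.420 CPM, and the values elsewhere come from 2 to 21 reads. Tbx5, the forelimb factor, had 1 read, in AP_34d replicate 1 (0.195 CPM), and 0 in the other 9 libraries.

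The transcripts Tbx3, a T-box repressor of limb and mammary development, and Tbx18, a factor of somites and of cells around vessels, were high in the same libraries as Pitx1. Tbx3 was read at 2.39 and 10.5 CPM in RA_0, 3.46 and 1.96 in AP_1h, 9.52 and 2.81 in PLA_1h, 2.15 and 2.99 in AP_34d, 6.62 and 3.84 in PLA_34d. Tbx18 was read at 1.67 and 4.9 CPM in RA_0, 2.16 and 2.24 in AP_1h, 5.95 and 1.75 in PLA_1h, 1.37 and 2.54 in AP_34d, 5.27 and 3.98 in PLA_34d. The nerve markers (5 of 5 in the table, none at 0 in any library) were also highest in these 3 libraries, at 253.2, 161.7 and 107.2 CPM in sum against 39.9 to 61.8 CPM elsewhere. The adipocyte genes Adipoq (21.1, 21.1 and 73.0 CPM) and Plin1 (8.61, 7.04 and 16.4 CPM) had their highest values in the same 3 libraries too, while the sum of the 5 adipocyte markers, 131.8 to 339.1 CPM, was highest in AP_34d replicate 1. Without a test, this says only that the values lie in the same libraries, and the part of nerve and fat tissue in the 3 members was not tested. Tbx2, the close relative of Tbx3, ranged from 0.84 to 5.05 CPM and was highest in RA_0 replicate 2.

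**Figure D2:**
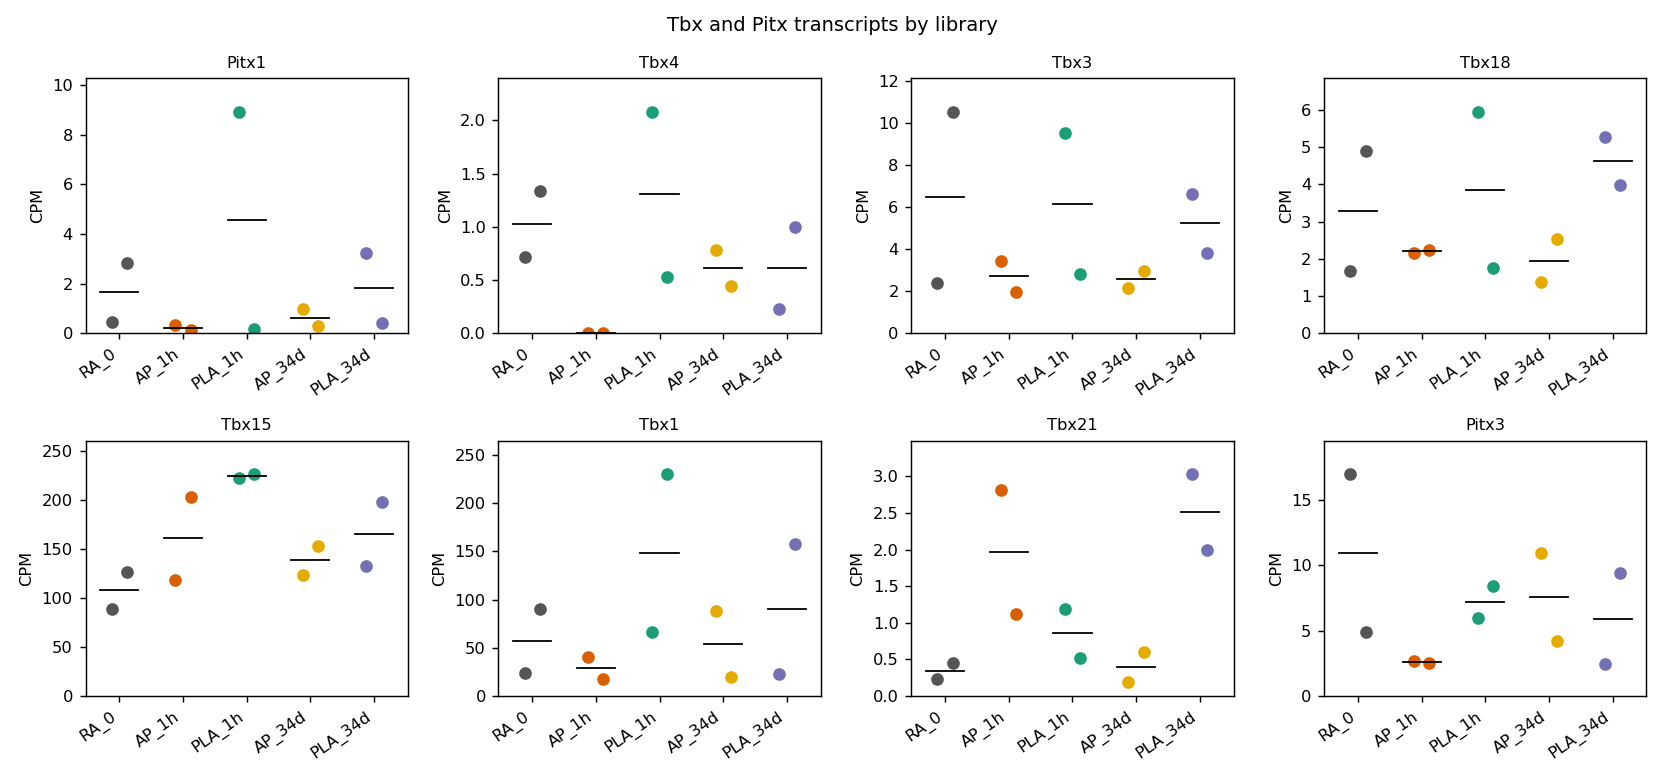
CPM of 8 Tbx and Pitx transcripts (panels) by group, with 1 point per library and a bar at the mean of the 2 libraries. Pitx1, Tbx3 and Tbx18 have their highest 3 libraries in common, while both AP_1h libraries are at 0 for Tbx4 and lie at 2.52 and 2.70 CPM for Pitx3.

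Pitx3, which acts in muscle differentiation, the lens and dopamine neurons, was read at 16.9 and 4.9 CPM in RA_0, 2.7 and 2.52 in AP_1h, 5.95 and 8.42 in PLA_1h, 10.9 and 4.18 in AP_34d, 2.47 and 9.38 in PLA_34d. RA_0 replicate 1 was the highest and PLA_34d replicate 1 the lowest, with the AP_1h libraries just above the latter.

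Tbx15, a factor of glycolytic muscle fibres and of the skeleton, was read at 89.2 and 127 CPM in RA_0, 119 and 203 in AP_1h, 222 and 227 in PLA_1h, 124 and 154 in AP_34d, 133 and 199 in PLA_34d. Both PLA_1h libraries were the highest of all and RA_0 replicate 1 the lowest, and the AP_1h libraries reached from near the RA_0 values to near the PLA_1h values. Tbx1, a factor of head and neck muscles and of pharyngeal development, was read at 23.9 and 90.7 CPM in RA_0, 40.4 and 17.2 in AP_1h, 65.9 and 229.7 in PLA_1h, 87.7 and 19.3 in AP_34d, 22.9 and 157 in PLA_34d. The 2 libraries of a group were more than 2-fold apart in all 5 groups.

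Tbx21, known as T-bet, the factor of type 1 helper T cells, was read at 0.239 and 0.446 CPM in RA_0, 2.81 and 1.12 in AP_1h, 1.19 and 0.526 in PLA_1h, 0.195 and 0.598 in AP_34d, 3.03 and 1.99 in PLA_34d. RA_0 and AP_34d stayed below 1 CPM, and the highest value was that of PLA_34d replicate 1. Leukocyte markers (5 of 5 in the table) summed to 194.3 CPM there, to 49.0 and 17.6 CPM in AP_1h and to 19.3 and 22.0 CPM in RA_0. The remaining libraries lay at 16.9 to 39.1 CPM. Ptprc was at 0 in every library, and it is listed as several transcripts, whose shared reads the counting drops. Cd3e, the T cell gene of the list, was at 36.3 and 0.284 CPM in PLA_34d and at 4.22 and 0.420 CPM in AP_1h. The part of leukocytes in the Tbx21 values was not tested. Tbx19, a pituitary factor, ranged from 2.09 to 9.81 CPM, and Tbx6, a factor of early mesoderm, from 0.175 to 1.19 CPM. Tbx20 had 2 reads in all and Tbx22 none.

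Of the 23 Hox transcripts, 12 reached 1 CPM, 7 had reads but stayed below it (Hoxb8, Hoxb9 and Hoxd13 among them), and 4 had no read (Hoxd1, Hoxb13, Hoxc12 and Hoxd12). The lowest paralogue number with a transcript at 1 CPM was 3. Hoxb3 was read at 0.477 and 1.49 CPM in RA_0, 0.757 and 0.7 in AP_1h, 1.09 and 0.175 in PLA_1h, 0.195 and 1.2 in AP_34d, 0.897 and 0.995 in PLA_34d, each value from 1 to 11 reads, with no group apart. Hoxc4, a gene of the neck and upper trunk, was read at 9.78 and 8.02 CPM in RA_0, 6.81 and 9.1 in AP_1h, 3.47 and 8.07 in PLA_1h, 7.03 and 5.68 in AP_34d, 5.16 and 11.1 in PLA_34d. Its lowest value was that of PLA_1h replicate 1 and its highest that of PLA_34d replicate 2, so no group stood apart.

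Hoxd4, whose transcript overlaps the microRNA gene Mir10b, was read at 11 and 2.38 CPM in RA_0, 5.62 and 8.54 in AP_1h, 2.58 and 1.4 in PLA_1h, 4.3 and 2.54 in AP_34d, 3.14 and 0.995 in PLA_34d. The lowest values were in PLA_34d replicate 2 and PLA_1h replicate 2, and the 2 RA_0 libraries spanned almost the whole range. Hoxc5, which overlaps Mir615, was read at 3.58 and 2.97 CPM in RA_0, 1.62 and 1.4 in AP_1h, 1.49 and 2.63 in PLA_1h, 1.56 and 1.2 in AP_34d, 2.8 and 2.56 in PLA_34d. RA_0 held the highest 2 values.

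Among the middle paralogues, Hoxa6 was read at 1.91 and 3.86 CPM in RA_0, 1.95 and 1.12 in AP_1h, 3.07 and 3.16 in PLA_1h, 3.52 and 3.44 in AP_34d, 3.59 and 4.69 in PLA_34d. AP_1h replicate 2 was the lowest and PLA_34d replicate 2 the highest. Hoxb7 was read at 2.62 and 1.63 CPM in RA_0, 1.62 and 0.7 in AP_1h, 0.991 and 1.4 in PLA_1h, 1.95 and 0.896 in AP_34d, 1.57 and 1.14 in PLA_34d, with RA_0 replicate 1 at the top and AP_1h replicate 2 at the bottom. Hoxc8 was read at 0.477 and 1.19 CPM in RA_0, 0.216 and 0.84 in AP_1h, 0.198 and 0.175 in PLA_1h, 0.781 and 0 in AP_34d, 1.12 and 0.569 in PLA_34d, at 0 to 10 reads a library. No group stood apart for these 3 genes, and Hoxa9 (Hoxa7) ranged from 1.91 to 5.69 CPM and Hoxc9 from 4.56 to 18.6 CPM, without a group apart from all the others.

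Hoxd9 (chr3:57312123-57314510 in rn4, plus strand), of trunk and limb, was read at 31 and 8.02 CPM in RA_0, 25.9 and 27.3 in AP_1h, 8.62 and 4.21 in PLA_1h, 18.7 and 7.62 in AP_34d, 10.9 and 2.42 in PLA_34d. Both AP_1h libraries, RA_0 replicate 1 and AP_34d replicate 1 were above 18 CPM, and the other 6 were below 11 CPM. Hoxd10 (chr3:57306064-57309273, plus strand), its neighbour in the cluster, was read at 5.01 and 2.67 CPM in RA_0, 6.81 and 9.24 in AP_1h, 1.69 and 0.351 in PLA_1h, 2.15 and 2.09 in AP_34d, 2.47 and 0.853 in PLA_34d. Its AP_1h values were the highest 2, RA_0 replicate 1 came next, and the PLA_1h and PLA_34d groups held the lowest 3.

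Hoxa10 (Hoxa11) (chr4:80542417-80546079, minus strand), with a span of 3663 bases that is also the span of Hoxa11 in RefSeq, was read at 13.6 and 13.2 CPM in RA_0, 1.08 and 1.54 in AP_1h, 13.8 and 9.83 in PLA_1h, 7.03 and 10.8 in AP_34d, 4.71 and 9.38 in PLA_34d. The AP_1h libraries, at 10 and 11 reads, were below all other 8 libraries, the lowest of which was PLA_34d replicate 1. The transcript shares 686 bases with RGD1564419 on the other strand, which is named Hoxa11-as, an antisense RNA, in RefSeq. RGD1564419 was read at 3.34 and 4.31 CPM in RA_0, 0.432 and 0 in AP_1h, 6.05 and 4.21 in PLA_1h, 3.32 and 3.73 in AP_34d, 2.8 and 5.12 in PLA_34d, and it too was lowest in both AP_1h libraries. The use of strand in counting is not given in the sources used here, so reads of the 2 genes cannot be told apart where they overlap. The mean was 1.31 ± 0.324 CPM in AP_1h, 13.4 ± 0.269 CPM in RA_0 and 11.8 ± 2.79 CPM in PLA_1h (SD, n = 2).

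**Figure D3:**
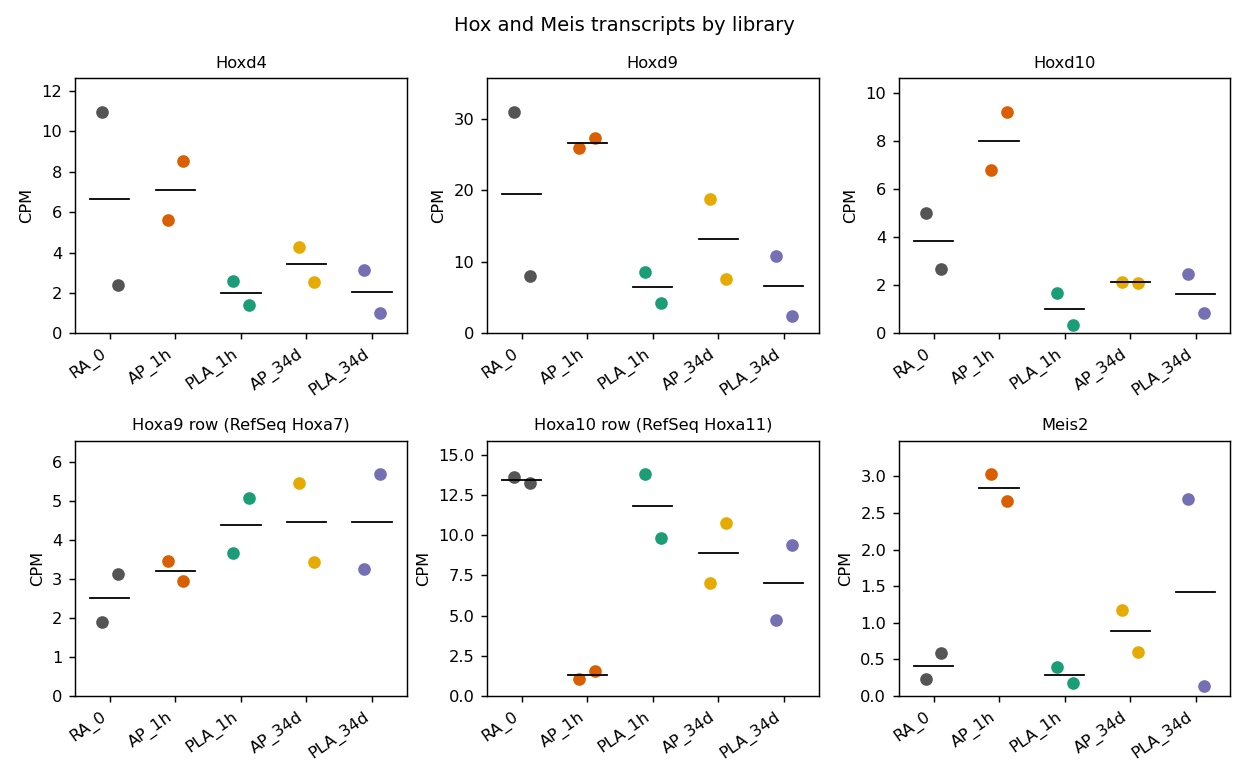
CPM of 6 Hox and Meis transcripts (panels) by group, with 1 point per library and a bar at the mean of the 2 libraries. The AP_1h points of Hoxa10 (Hoxa11), at 1.08 and 1.54 CPM, lie below every other library, whereas those of Hoxd10, at 6.81 and 9.24 CPM, lie above.

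The question of the first comparison is what differed 1 hour after acupuncture from before therapy. In these libraries Hoxa10 (Hoxa11) was lower by the largest margin of all tested members, and Meis2 and Tbx21 were higher, while Pitx3 was lower. A transcript was tested if both libraries of some group reached 1 CPM, which 18 of the 25 tested members did in all 5 groups and 7 in fewer (Meis2 only in AP_1h, Tbx21 only in AP_1h and PLA_34d). Of the 25 members tested with limma among 10259 transcripts, 0 passed an adjusted p under 0.05, a call met by 0.0292% of all tested transcripts, and 5 had an unadjusted p under 0.05 (8.89% of all tested). By limma-voom and edgeR on the recovered reads 0 members passed as well, and by DESeq2 1 passed, Hoxa10 (Hoxa11). It was 1 of 166 transcripts that DESeq2 called in this comparison. The study's own rule, unadjusted p under 0.05 with at least a 2-fold change and a mean of at least 1 CPM, was met by 2 members that were higher (2.53% of all tested) and 3 that were lower (3.59%). In the limma fit its fold was taken from the difference in log2(CPM + 1), which is smaller than the ratio of CPM for low transcripts.

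Hoxa10 (Hoxa11) differed by -2.65 on the log2 scale, with an SE of 0.39 (adjusted p = 0.0806), the smallest p among the members. Its adjusted p ran from 8.81e-06 to 0.545 over 22 alternatives. It passed with DESeq2, with the compared groups alone (adjusted p = 0.00744), without PLA_34d replicate 1 (0.0425) and without PLA_34d replicate 2 (0.0422), and in no other. RGD1564419, the antisense neighbour, differed by -2.00 (SE 0.39, adjusted p = 0.147) in the same limma fit.

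Other members met the study's rule without passing limma. Meis2 differed by 1.45 (SE 0.53, adjusted p = 0.463) and Tbx21 by 1.09 (SE 0.43, adjusted p = 0.512). On the lower side, Pitx3 differed by -1.51 (SE 0.65, adjusted p = 0.543). The 2 RA_0 values of Pitx3, 16.9 and 4.90 CPM, are far apart. Without AP_1h replicate 1, 1 member met the rule, without AP_1h replicate 2, 2 did, and without either RA_0 library in turn, 3 did. The median change over the 25 members was -0.22, against 0.00 over all tested transcripts, and the median size of change was 0.590 against 0.333. The members had the larger median size in every other comparison as well, placebo included. It was 0.487 against 0.247 in PLA_1h against RA_0, and 0.536 against 0.300 in AP_34d against PLA_34d.

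Against placebo at the same hour, Hoxd10, Hoxd9 and Hoxd4 had higher means in AP_1h and Hoxa10 (Hoxa11) a lower one. Because the placebo injection was peritoneal, this comparison cannot separate the twirling of the needle from the puncture of the tissue. Hoxd10 and Hoxd9 had the largest differences upwards, followed by Meis2 and Hoxd4. By limma 0 of 25 members passed (0% of all tested), and 5 had an unadjusted p under 0.05 (4.04% of all tested). By limma-voom and edgeR 0 passed, and by DESeq2 1 passed, again Hoxa10 (Hoxa11), among 39 transcripts that DESeq2 called here. The study's rule was met by 4 that were higher (0.975% of all tested) and 1 that was lower (1.65%).

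Hoxd10 differed by 2.23 (SE 0.48, adjusted p = 0.481) and Hoxd9 by 1.96 (SE 0.72, adjusted p = 0.977). Meis2 differed by 1.58 (SE 0.53, adjusted p = 0.869) and Hoxd4 by 1.44 (SE 0.60, adjusted p = 1). For Hoxd9 and Hoxd4 the AP_1h values lay inside the range of the 2 untreated RA_0 libraries. Hoxa10 (Hoxa11) differed by -2.46 (SE 0.39, adjusted p = 0.29), and it passed in 2 of 22 alternatives, DESeq2 (adjusted p = 0.000111) and the compared groups alone (0.0477), within a range of 0.000111 to 1. Hoxd10 reached an adjusted p of 0.0513 at the lowest and 1 at the highest. Without AP_1h replicate 1 or without PLA_1h replicate 2, 2 members met the rule, and without AP_1h replicate 2, 3 did. RGD1564419 differed by -2.34 (SE 0.39, adjusted p = 0.29). The median change over the 25 members was -0.26, against 0.01 over all tested transcripts.

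**Figure D4:**
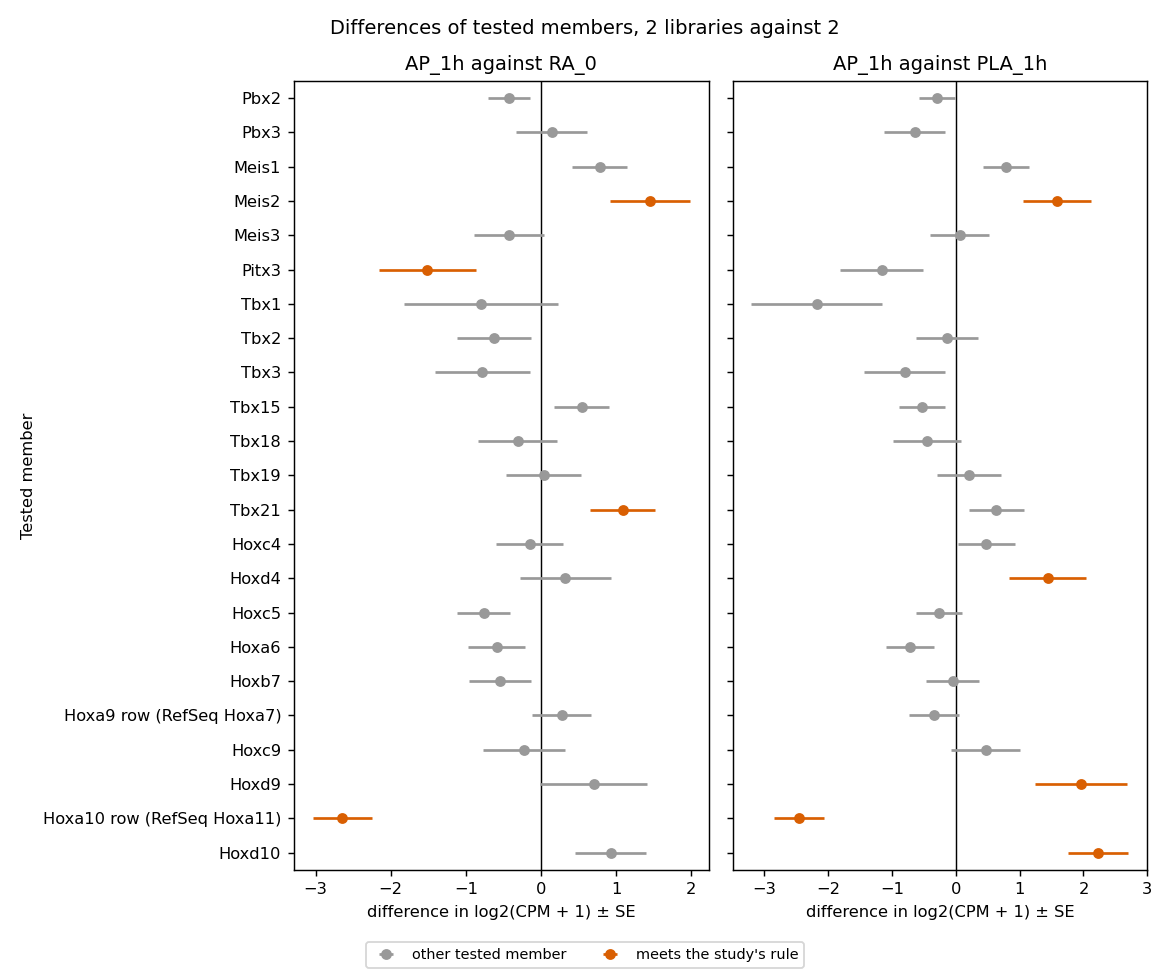
Difference in log2(CPM + 1) with its SE from limma for 23 of the 25 tested members, of AP_1h against RA_0 (left) and AP_1h against PLA_1h (right), 2 libraries a group. Both panels share the AP_1h libraries, and Hoxa10 (Hoxa11) lies at -2.65 on the left and -2.46 on the right.

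Placebo at 1 hour, set against before therapy, had a high Tbx15 and a low Hoxd10. Tbx15 differed by 1.07 (SE 0.36, adjusted p = 1) and its groups did not overlap. Hoxd10 differed by -1.30 (SE 0.48, adjusted p = 1), with 0.351 CPM in PLA_1h replicate 2 from 2 reads. By limma, limma-voom, edgeR and DESeq2 0 members passed (0% of all tested by limma), and 2 had an unadjusted p under 0.05 by limma (2.59% of all tested). The study's rule was met by 1 that was higher (0.994%) and 1 that was lower (0.673%), and by 0 without RA_0 replicate 1 and 5 without RA_0 replicate 2. The median change over the members was -0.17, against -0.01 over all tested transcripts.

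At 34 days of acupuncture no member met the study's rule against RA_0 with the fold of the limma fit. That rule was met by 1.49% of all tested upwards and 1.33% downwards. The member with the smallest unadjusted p, Hoxc5, differed by -0.85 (SE 0.36, adjusted p = 0.967), from 3.58 and 2.97 CPM to 1.56 and 1.2 CPM. Its ratio of mean CPM was 0.421, beyond 2-fold, so it would meet the rule with a fold taken on CPM. By limma-voom, the study's tool, 0 members had an unadjusted p under 0.05 here. By each of the 4 tools 0 members passed (0% of all tested by limma), and 1 had an unadjusted p under 0.05 by limma (4.77%). Without RA_0 replicate 1, 2 members met the rule, and without RA_0 replicate 2, 1 did. The median change over the members was -0.39, against -0.01 over all tested transcripts. Hoxa10 (Hoxa11) was at 7.03 and 10.8 CPM in AP_34d, below both RA_0 values. The PLA_34d libraries, at 4.71 and 9.38 CPM, were below both RA_0 values too.

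In PLA_34d, Tbx21 was the only member to meet the study's rule, both against RA_0 and against AP_34d, and those comparisons share the PLA_34d libraries. Tbx21 passed the filter only through AP_1h and PLA_34d, so these results are not independent of the filter. Its highest value was in PLA_34d replicate 1, where lymph node markers summed to 647.7 CPM and leukocyte markers to 194.3 CPM. The part of these cells was not tested. Tbx21 differed by 1.38 (SE 0.43, adjusted p = 0.914) from RA_0, and AP_34d differed from PLA_34d by -1.33 (SE 0.43, adjusted p = 0.846). Against RA_0, 0 members passed by any of the 4 tools (0% of all tested by limma). By limma 2 had an unadjusted p under 0.05 (3.2% of all tested), Tbx21 and Hoxa10 (Hoxa11). Hoxa10 (Hoxa11) differed by -0.90 (SE 0.39, adjusted p = 0.914). The rule was met by 1 that was higher (1.98%) and by 0 that were lower (0.439%). Between AP_34d and PLA_34d, 0 members passed by any of the 4 tools (0% of all tested by limma), 2 had an unadjusted p under 0.05 (5.47%), and the rule was met by 0 that were higher (1.38%) and 1 that was lower (2.18%). The count against RA_0 was 3 without PLA_34d replicate 1, 4 without PLA_34d replicate 2 and 4 without RA_0 replicate 2. The count between AP_34d and PLA_34d was 2 without either PLA_34d library and 0 without AP_34d replicate 1. The median change over the members was -0.02 against RA_0 (all tested transcripts, -0.01) and -0.24 between AP_34d and PLA_34d (all tested transcripts, 0.00).

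Over all 5 groups at once, limma's F test gave 0 members that passed (0% of all tested) and 3 with an unadjusted p under 0.05 (4.98% of all tested), namely Hoxa10 (Hoxa11), Hoxd10 and Tbx21. Hoxa10 (Hoxa11) had the smallest, with an adjusted p of 0.282. On the recovered reads 0 members passed by limma-voom and edgeR, and 2 by DESeq2, Hoxa10 (Hoxa11) and Hoxd10. DESeq2 called 254 transcripts in all among the 5 groups. Without PLA_34d replicate 2, 1 member passed by limma.

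Of 6 pairs of members chosen for a relation across libraries, 4 were computed, and the 2 pairs with Hoxc10 were not analysed here. Pearson's r was taken on log2(CPM + 1) with a two-sided permutation test of 100000 resamples, adjusted over the 4 pairs. Libraries were permuted without regard to group, so differences between groups enter these p-values. The study's list of changed genes, read beforehand, named Hoxa10, Hoxd9 and Hoxd10. The p-values of pairs with these genes are therefore not independent evidence. An r after group means are subtracted rests on 1 difference per group and was given no p. Hoxd9 and Hoxd10, neighbours in cluster d, had an r of 0.881 (permutation p = 0.0008, adjusted p = 0.0032) and a Spearman's rho of 0.842 (permutation p = 0.00342, adjusted p = 0.0137) over 10 libraries. Without the 2 libraries farthest from the median of Hoxd9 (RA_0 replicate 1 and PLA_34d replicate 2) r was 0.891 (permutation p = 0.00293), and after the group means were subtracted it was 0.830. The libraries high in both genes belonged to different groups, AP_1h and RA_0.

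**Figure D5:**
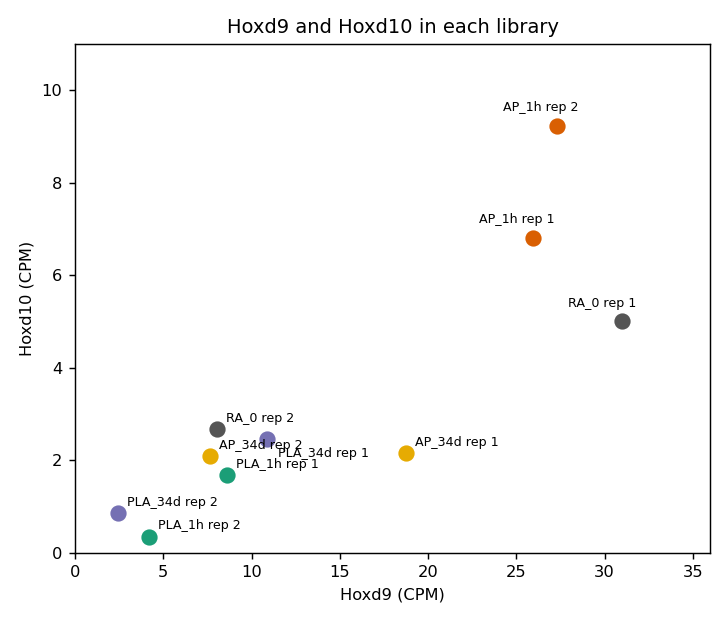
Hoxd10 against Hoxd9 in CPM, 1 point per library coloured by group. The 2 AP_1h libraries and RA_0 replicate 1 lie at the upper right, and PLA_1h replicate 2 and PLA_34d replicate 2 at the lower left.

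Pitx1 and Tbx4 had an r of 0.650 (permutation p = 0.0440, adjusted p = 0.0587) and a rho of 0.620 (permutation p = 0.0607, adjusted p = 0.121), which did not pass. Without PLA_1h replicate 1 and PLA_34d replicate 1 their r was 0.705 (permutation p = 0.0391), and within groups 0.551. Without PLA_34d replicate 1 alone it passed, with an r of 0.823 (permutation adjusted p = 0.00358). Hoxa10 (Hoxa11) and Hoxd10 had an r of -0.652 (permutation p = 0.0420, adjusted p = 0.0587) and a rho of -0.406 (permutation p = 0.248, adjusted p = 0.330). Without the 2 AP_1h libraries, which stand apart for Hoxa10 (Hoxa11), r was 0.137 (permutation p = 0.743), so the relation rests on those libraries. Without RA_0 replicate 1 alone it passed, with an r of -0.806 (permutation adjusted p = 0.0272). Hoxa9 (Hoxa7) and Hoxa10 (Hoxa11) had an r of 0.0528 (permutation p = 0.886, adjusted p = 0.886), a rho of -0.103 (permutation p = 0.783, adjusted p = 0.783) and, without RA_0 replicate 1 and PLA_34d replicate 2, an r of 0.298 (permutation p = 0.507).

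Other genes of body and limb patterning were taken from a list of 54, of which 43 were in the table and 24 transcripts were tested. The study's own list of changed genes, read beforehand, named Zic1, Six2 and Mab21l1 among them, as it named Hoxa10, Hoxd9, Hoxd10 and Meis2 among the members, so their counts are not independent evidence. By limma 0 passed in any of the 6 comparisons. In AP_1h against RA_0, 2 of the 24 met the study's rule upwards (2.53% of all tested) and 3 downwards (3.59%). Six2, a factor of connective tissue and kidney precursors, averaged 3.50 CPM in AP_1h and 28.5 CPM in RA_0, a difference of -2.61 (SE 0.48, adjusted p = 0.103). Prrx2, a limb mesenchyme factor, differed by -1.18 (SE 0.40, adjusted p = 0.401) and Aldh1a2, which makes retinoic acid, by -1.49 (SE 0.56, adjusted p = 0.472). Prrx2 passed the filter only through RA_0, at 1.91 and 3.12 CPM, and was at 0.649 and 0.420 CPM in AP_1h. Its lower values against RA_0, here and in PLA_34d, are therefore not independent of the filter. Upwards, Irx3 differed by 1.93 (SE 0.73, adjusted p = 0.473) and Tgif1, a repressor of retinoid and TGF-beta targets, by 2.04 (SE 0.89, adjusted p = 0.55). Tgif1 was at 83.2 and 11.1 CPM in AP_1h and 17.6 and 84.8 CPM in AP_34d, so 1 library carried each mean, and RA_0 was at 5.01 and 9.06 CPM.

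Against PLA_1h, the AP_1h libraries had 1 of the 24 higher (0.975% of all tested) and 2 lower (1.65%) by the rule. Mab21l1 differed by 1.75 (SE 0.43, adjusted p = 0.548) and Six2 by -2.26 (SE 0.48, adjusted p = 0.481). Zic1, a factor of the dorsal midline and of dorsal muscle, had no read in AP_1h and a mean of 2.72 CPM in PLA_1h. It differed by -1.82 (SE 0.65, adjusted p = 0.955). Zic1 passed the filter only through PLA_1h, so this difference is not independent of the filter. RA_0 was at 0.239 and 3.42 CPM, AP_34d at 0.195 and 0.598 CPM, and PLA_34d at 2.69 and 0.426 CPM. Mab21l1 was also lower by the rule in PLA_1h against RA_0, by -1.32 (SE 0.43, adjusted p = 1), and in PLA_34d against RA_0, where Prrx2 joined it and the differences were -1.29 (SE 0.43, adjusted p = 0.914) and -1.15 (SE 0.40, adjusted p = 0.914). Tgif1, with AP_34d replicate 2 far above replicate 1, met the rule in AP_34d against RA_0, with a difference of 2.36 (SE 0.89, adjusted p = 0.967), and against PLA_34d, with 2.31 (SE 0.89, adjusted p = 0.856). Mab21l1 met it in AP_34d against PLA_34d, with 1.19 (SE 0.43, adjusted p = 0.846).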

How the data were processed

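RNA from 10 samples was sequenced after poly(A) selection with a TruSeq v2 kit. Per the labels, and the methods of the study, the authors used CASAVA 1.8.2, cutadapt 1.2.1, Bowtie2 2.1.0 (rat build rn4) and HTSeq 0.5.4p3 in its intersection-nonempty mode, and scaled counts per transcript to CPM with edgeR 3.4.2 and TMM. The deposited values are this signal. HTSeq drops reads that fit several transcripts, so overlapping genes are uncertain. Reads were recovered from the signal, 100% of values being whole within 0.01 reads.

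Values were tested as log2(CPM + 1), which understates the change of low transcripts, in a limma 3.58.1 model (R 4.3.3) of all 5 groups with eBayes and a mean trend. Transcripts needed 1 CPM in both libraries of a group, and p-values were adjusted by Benjamini-Hochberg over all 10259, with a call under 0.05. Of the 31 expressed members, 25 passed the filter, and some passed only through the group where they were high. The study's limma-voom, edgeR 4.0.16 and DESeq2 1.42.0 were run on recovered reads. On these, limma-voom and edgeR called 0 transcripts in each of the 6 comparisons, and DESeq2 called 166 (AP_1h against RA_0), 10 (PLA_1h against RA_0), 33 (AP_34d against RA_0), 38 (PLA_34d against RA_0), 39 (AP_1h against PLA_1h) and 87 (AP_34d against PLA_34d). The analysis was repeated with pseudocounts of 0.25 and 4, with all transcripts, with a mean of 5 CPM, with 2 scalings, no trend, the compared groups alone, a replicate block and each library left out. The analysis was tested on simulated data. Correlations used scipy 1.17.1.

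Expressed members are named with their level, except a few that are counted but not reported here, with values for members that met the study's rule, for limb factors and for the leading transcript of each family and paralogue number. The members and lists were chosen with earlier results of these data known. The p-values of the group comparisons measure the spread between these libraries, with 2 libraries a group, for which an exact permutation test cannot go below 0.333. Coordinates are rn4, counted from 1, except the promoters, which are RefSeq's in GRCr8, where 24 of 45 symbols were matched by gene.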

Additional observations from a re-analysis of the deposited data

How the results depend on the processing

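No log2 change of a member that met the study's rule turned its direction under any of the 22 alternatives. Members passing the adjusted threshold numbered 0 in every comparison, except 1 with DESeq2 and 1 with the compared groups alone, in AP_1h against RA_0 and in AP_1h against PLA_1h each, and 2 with DESeq2 among the 5 groups. With libraries left out, they ran from 0 to 1 in AP_1h against RA_0 and among the 5 groups, and stayed at 0 in the other 5 comparisons.

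Members meeting the study's rule were fewer with a pseudocount of 4 or a mean of at least 5 CPM: 1 and 1 in place of 5 (AP_1h against RA_0), 1 and 1 in place of 2 (PLA_1h against RA_0), 0 and 0 in place of 1 (PLA_34d against RA_0 and AP_34d against PLA_34d), and 3 and 2 in place of 5 (AP_1h against PLA_1h). CPM without TMM factors gave 3 (AP_1h against RA_0) and 1 (PLA_1h against RA_0), and moved the median of all transcripts by 0.15, 0.23, 0.10 and -0.19 on the log2 scale (AP_1h against RA_0, PLA_34d against RA_0, AP_1h against PLA_1h, AP_34d against PLA_34d). In AP_34d against RA_0 the count of 0 became 1 with a pseudocount of 0.25 and 2 with edgeR. DESeq2 gave 4 in PLA_1h against RA_0 and 3 in PLA_34d against RA_0, where limma-voom gave 2. With libraries left out the counts ran from 1 to 5 (AP_1h against RA_0), 0 to 5 (PLA_1h against RA_0), 0 to 2 (AP_34d against RA_0), 1 to 4 (PLA_34d against RA_0), 2 to 6 (AP_1h against PLA_1h) and 0 to 2 (AP_34d against PLA_34d). The cause of these moves was not tested.

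Deviations of same-numbered libraries from their group means correlated between -0.464 and 0.446. Such values cannot decide, with 2 libraries a group, whether replicate numbers pair the samples. With the replicate block, 15 members met the rule over the 6 comparisons, against 14 without it, with 2 in PLA_34d against RA_0.

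The correlation of Hoxd9 and Hoxd10 passed under every alternative tested, with r from 0.861 to 0.925 when libraries were left out. Pitx1 and Tbx4 passed with a pseudocount of 4 (r 0.714), without TMM factors (0.691) and without PLA_34d replicate 1, within a range of 0.336 to 0.823. The listed Hoxa10 and Hoxd10 passed with a pseudocount of 4 (-0.666), without TMM factors (-0.662) and without RA_0 replicate 1, within a range of -0.806 to -0.484, and had -0.116 after group means were subtracted. The listed Hoxa9 and Hoxa10 turned negative without AP_1h replicate 2 (-0.0956), PLA_1h replicate 2 (-0.00344) or PLA_34d replicate 2 (-0.0146), within a range of -0.0956 to 0.341. Members below about 3 reads in a library are set by counting error there, and 2 libraries a group limit every test.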

Other observations

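The difference between acupuncture and placebo was set against itself at the 2 times with a limma interaction term (difference at 34 days minus difference at 1 hour), which was added to the other comparisons. By limma 0 of 25 members passed an adjusted p under 0.05, and 5 had an unadjusted p under 0.05, against 0 and 4.05% of all 10259 tested transcripts. The transcript listed as Hoxa10, which RefSeq names Hoxa11, gave 2.80 with an SE of 0.55 (limma adjusted p = 1), and Hoxd10 gave -1.93 with an SE of 0.67 (limma adjusted p = 1). Tbx21 gave -1.97, Meis2 -1.72 and Meis1 -1.40.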
